A study of Mus musculus with 12 samples.

Results

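The red cell and heme synthesis genes are 33 genes chosen by symbol: 10 of the membrane's surface and transport proteins, 5 of the membrane skeleton, 8 of heme synthesis, 4 of iron handling and 6 soluble enzymes and nuclear or regulatory proteins. They were taken from the 18194 genes that have a probe set naming 1 gene on a mouse Affymetrix array, each gene by its brightest such probe set. Of these 33 genes, 29 passed the filter on low signal and were tested among 10583 genes, and 4 (Slc4a1, Epb42, Alas2 and Trim10) lay below it. The study measured total RNA on 12 arrays, from mice whose blood cells lack or keep the genes Stat5a and Stat5b, in 4 groups of 3: Stat5 knockouts with a plus sign in the title, controls with a plus sign, knockouts with a minus sign and controls with a minus sign. They are called knockout plus, control plus, knockout minus and control minus samples here. The treatment labels give plus as treated with CMP and minus as treated without it, and do not spell the name out, while the titles of 8 arrays carry those letters under either sign. Strain, age, tissue, the means of deletion and whether replicates came from separate animals are not given in the sources used here, so p-values show the spread of these arrays and no more, which may be technical. The arrays' titles are written in 3 ways, and 4 arrays, 1 per group, share each way. These are naming sets A, B and C. Signals below are in the arrays' scaled units, in the order A, B, C.

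Red cell precursors fill with hemoglobin while they build a membrane that carries blood group proteins, ion and water channels and an anchored skeleton of spectrin. Heme is built from glycine and succinyl-CoA by enzymes that work in turn in the mitochondrion and the cytosol, and the last of them sets iron into the ring. Iron comes in with transferrin through the transferrin receptor, leaves the endosome through a metal transporter, enters mitochondria through mitoferrin or is stored in ferritin. Stat5 proteins carry the signal of the erythropoietin receptor in erythroid cells.

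The labels of genotype were borne out by the deleted genes: Stat5a gave 28.9 to 90.1 in the 6 knockout arrays and 660 to 1436 in the 6 control arrays, and Stat5b gave 7.28 to 82.8 in knockouts and 1036 to 2177 in controls. One knockout minus array, of set B, has a treatment label that calls it a control, and it was grouped by its title (its Stat5 signals lie in the knockout range given). Set B stood apart from the others, with highest signals of 59691 to 126575 against 19105 to 26874 in sets A and C. The beta-actin log2 ratio of the 3' to the 5' probe set, a sign of RNA length, was 4.30 to 5.78 in set B, 0.34 to 2.14 in set A and 0.25 to 0.89 in set C. It was higher in the plus than in the minus array in 6 of 6 pairs of the same genotype and set, by 0.25 to 1.63, and its part in the results was not tested beyond the fit that holds it as a covariate. Some defining products of late red cells were dim, and some globins were brighter. Alas2, the red cell form of the enzyme that starts heme synthesis, gave 2.59 to 74.3 over the 12 arrays, and Slc4a1, the band 3 anion exchanger, gave 1.64 to 187. The alpha globin gene Hba-a2 passed the filter at 58.9 to 1037, and the probe set that names Hbb-b1 together with other beta globins gave 174 to 1579. These genes are therefore described by their pathways, and not as a measure of mature red cells.

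In knockouts, 13 of the 29 tested genes fell in plus relative to minus samples and 3 rose, where 9.72% of all 10583 tested genes fell and 9.03% rose (limma, adjusted p under 0.05 over all genes tested). In controls, 12 fell and 3 rose, where 11.6% of all genes fell and 10.6% rose. The median log2 change of the 29 was -0.83 in knockouts and -0.68 in controls, beside -0.06 and -0.02 over all tested genes. An unadjusted p under 0.05 was found for 21 of the 29 in knockouts and 17 in controls, beside 33.9% and 36.4% of all tested genes. Both genotypes shared 10 genes that fell (Kel, Icam4, Rhd, Rhag, Ermap, Cldn13, Atp1b2, Ank1, Alad and Car1) and 2 that rose (Tmod1 and Fth1), where 6.7% of all tested genes fell and 6.62% rose in both. Another 4 were called in knockouts only and 3 in controls only, and the test of the difference between genotypes called 0 of the 29, so these 7 are not shown to differ. Every called gene kept its direction within all 3 naming sets. When the fit also held the beta-actin ratio, 4 genes were called in knockouts and 10 in controls, and without the block for the naming set 4 and 7. Of the 29, Rhag and Cldn13 passed the filter through their minus samples alone and Sptb through its plus samples alone, so a gene of that kind had to differ. Among the 26 others, 11 fell and 3 rose in knockouts, where 9.77% of the 10135 genes above the filter under both signs fell and 8.59% rose. In controls 10 of the 26 fell and 2 rose, beside 11.6% and 9.83%. The calls kept under fewer than 20 of the 27 or 28 alternative settings were those of Rhag (14), Cldn13 (14), Ank1 (17), Tfrc (18), Fth1 (19), Slc25a37 (12), Hemgn (10) and Tmod1 (9) in knockouts and of Ank1 (18) and Sptb (8) in controls. In whole samples, fewer cells of a type and less RNA per cell cannot be told apart.

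**Figure D1:**
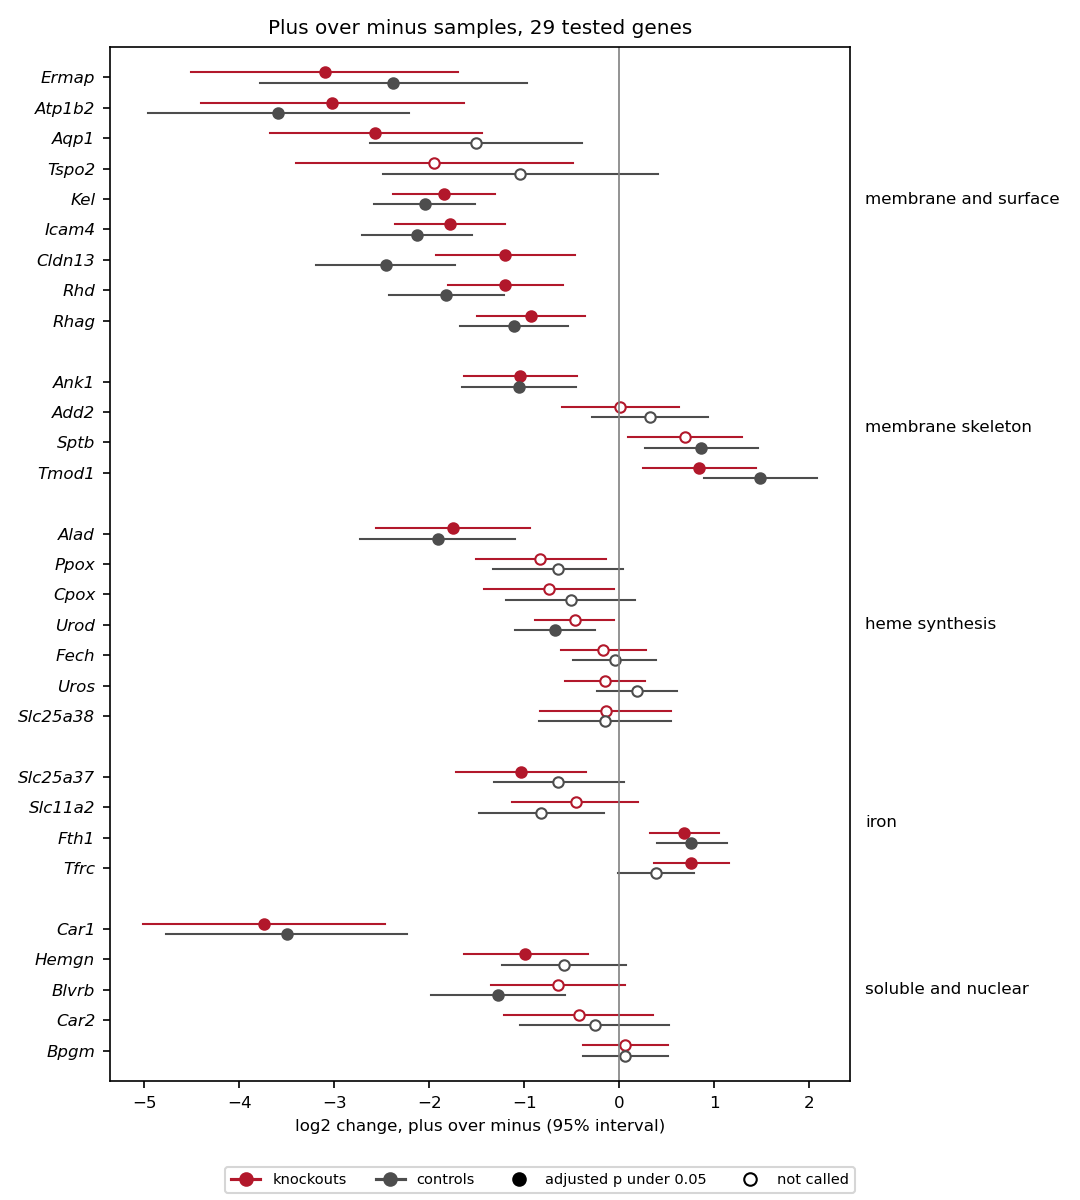
Log2 change of plus over minus samples for each of the 29 tested genes, grouped by role, with 95% intervals (3 arrays a group; red is knockouts, grey is controls, and filled points have an adjusted p under 0.05). All 9 tested membrane and surface genes lie left of 0 in both genotypes, from -3.10 to -0.93 in knockouts and from -3.59 to -1.04 in controls, while Fth1 and Tmod1 lie to the right.

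Among the membrane's surface and transport proteins, 8 of the 9 tested genes fell in plus samples of knockouts and none rose. In controls 7 of 9 fell and none rose. Of all tested genes, 9.72% fell in knockouts and 11.6% in controls. The median log2 change of the 9 was -1.85 in knockouts and -2.05 in controls. These counts and medians include Rhag and Cldn13, which passed the filter through their minus samples alone, so their fall was favoured by the filter. The change was negative for all 9 genes within each of the 3 naming sets, in both genotypes. Slc4a1, below the filter, was not called when all genes were tested without it (log2 change -1.18 with an adjusted p of 0.0768 in knockouts, and -0.55 with 0.412 in controls).

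Kel, the Kell blood group endopeptidase, gave 157, 87.5 and 95.4 in knockout plus against 513, 485 and 443 in knockout minus samples. In controls Kel gave 227, 189 and 94.5 in plus against 991, 855 and 534 in minus samples. All 6 plus arrays lay below all 6 minus arrays. The log2 change of Kel was -1.85 ± 0.24 in knockouts (SE, adjusted p 0.00069), which is 3.6-fold lower, and -2.05 ± 0.24 in controls (0.000302), 4.14-fold lower.

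Icam4, the LW blood group adhesion molecule, gave 208, 120 and 194 in knockout plus against 681, 618 and 690 in knockout minus samples. It gave 289, 147 and 161 in control plus against 986, 1178 and 725 in control minus samples. Here too no plus array reached a minus array. Icam4 had log2 changes of -1.78 ± 0.27 in knockouts (adjusted p 0.00136) and -2.13 ± 0.27 in controls (0.000415).

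Rhd, the Rh blood group protein, gave 68.1, 86.9 and 88.3 in knockout plus against 228, 231 and 220 in knockout minus samples. In controls it gave 76.5, 130 and 50.2 in plus against 493, 400 and 248 in minus samples. Plus and minus arrays did not overlap, and the knockout minus arrays lay close together. Rhd changed by -1.20 ± 0.28 in knockouts (adjusted p 0.0129) and by -1.82 ± 0.28 in controls (0.00128), on the log2 scale.
Its partner Rhag, the Rh-associated channel protein, gave 52.6, 39.3 and 69.8 in knockout plus against 143, 117 and 132 in knockout minus samples. Rhag gave 73.4, 105 and 64.6 in control plus against 257, 214 and 167 in control minus samples. Again the signs did not overlap, and the log2 changes were smaller, -0.93 ± 0.26 in knockouts (adjusted p 0.0287) and -1.11 ± 0.26 in controls (0.0109). The plus arrays of Rhag averaged 6.61 on the log2 scale, below the filter at 6.76, so Rhag passed through its minus samples alone.

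Ermap, the erythroblast membrane-associated protein of the Scianna blood group, gave 533, 60.0 and 329 in knockout plus against 2101, 3738 and 1449 in knockout minus samples. It gave 1346, 929 and 541 in control plus against 4980, 11207 and 1851 in control minus samples. The signs did not overlap in either genotype, and the arrays of set B were the lowest and the highest. Its log2 change was -3.10 ± 0.64 in knockouts (adjusted p 0.00745), with -5.36 within set B and -1.92 and -2.04 within sets A and C. In controls it was -2.38 ± 0.64 (0.0215). Without set B the change was -1.98 in knockouts and -1.79 in controls, and both stayed called.

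Atp1b2, a beta subunit of the sodium pump, gave 456, 21.4 and 125 in knockout plus against 1407, 1839 and 779 in knockout minus samples. In controls it gave 485, 32.1 and 123 in plus against 3039, 2905 and 951 in minus samples. No plus array reached a minus array of its genotype, and the plus arrays of set B were the dimmest. Atp1b2 changed by -3.02 ± 0.63 in knockouts (adjusted p 0.00778) and by -3.59 ± 0.63 in controls (0.00257), or by -1.96 and -2.62 without set B. Its other probe set lay below the filter and gave 0.27 in knockouts (adjusted p 0.718 over all probe sets) and -0.41 in controls (0.468), so the fall rests on 1 probe set.

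Cldn13, a claudin, gave 43.8, 32.5 and 52.3 in knockout plus against 73.7, 219 and 156 in knockout minus samples. It gave 3.20, 67.1 and 10.1 in control plus against 211, 351 and 231 in control minus samples. Neither genotype showed overlap between the signs. The plus arrays averaged 5.97 on the log2 scale, below the filter at 6.76, so Cldn13 was lower in plus samples (adjusted p 0.028 in knockouts and 0.000663 in controls) by an amount that was not measured. It came to -1.20 in knockouts and -2.46 in controls, and with a pseudocount of 1 to -1.67 (not called, adjusted p 0.107) and -4.14.
Aqp1, the water channel, gave 669, 57.0 and 802 in knockout plus against 2095, 1991 and 2479 in knockout minus samples. Aqp1 gave 1260, 511 and 1412 in control plus against 4028, 2538 and 2192 in control minus samples. The signs did not overlap in either genotype. The log2 change was -2.57 ± 0.51 in knockouts (adjusted p 0.00628), with -4.51 within set B, -1.60 and -1.59 within sets A and C, and -1.60 without set B. In controls -1.51 ± 0.51 missed the threshold (adjusted p 0.0549). Without set B Aqp1 was called in controls (-1.14, adjusted p 0.0162), and it stayed uncalled under 17 of 28 alternatives. Tspo2, of the translocator protein family, was not called in knockouts (-1.95 ± 0.67, adjusted p 0.0614, with -4.44 within set B and -0.70 without it) or in controls (-1.04 ± 0.67, 0.288).

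**Figure D2:**
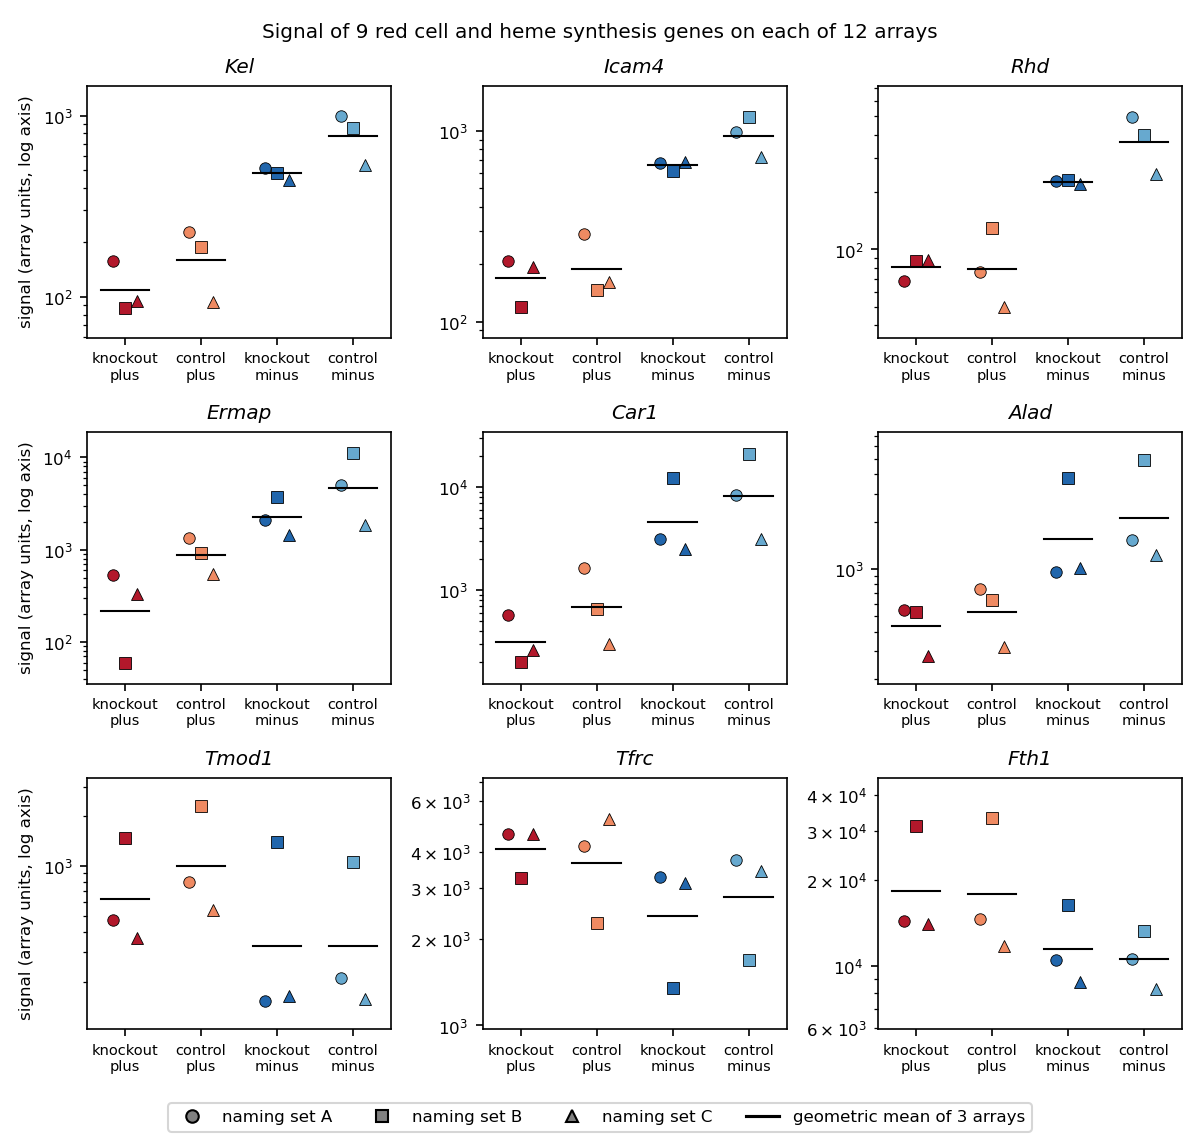
Signal of 9 of the genes on each of the 12 arrays, on log axes, by group from left to right: knockout plus, control plus, knockout minus and control minus, with symbols for the naming set and bars at the geometric mean of 3 arrays. The plus and minus arrays of Kel, Icam4, Rhd, Ermap, Car1 and Alad do not overlap within a genotype, while those of Tmod1, Tfrc and Fth1 do, with set B (squares) apart from sets A and C.

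Promoter windows from RefSeq (GRCm38.p6), 250 bases before to 50 after a start, were at hand for 24 of the 33 genes, of which 5 have a second start. A gene is counted where any of its windows holds the word. Erythroid genes are often bound by GATA1 at the words AGATAA or AGATAG or TGATAA or TGATAG, searched on both strands. Such a word was in the windows of 15 of the 24 genes (62.5%) and of 33.0% of 27025 genes. Of the 10 genes that fell in both genotypes, 6 have a window and 5 of these hold a word: Rhd, Rhag, Kel, Ermap and Icam4, all surface proteins. Genes that did not fall hold such words too. Among the genes that rose in either genotype, Fth1 and Sptb hold a word, and Tmod1 and Tfrc do not. Among those called in neither genotype, Add2, Cpox and Uros hold a word, and Bpgm, Ppox, Slc25a38 and Tspo2 do not. The 150 bases before the start are shown for the 5 genes that fell in both genotypes and hold a word. Tmod1, which rose and holds none, is shown beside them. These genes were picked by their words, so the sequences do not compare genes that fell with genes that rose. Alad fell in both genotypes and holds no word in its windows, while Fth1 rose in both and holds a word. The sequences read 5' to 3' on the gene's strand, with GATA words on either strand in capitals. Rhd is on the plus strand at chr4:134864386-134864535, Rhag on the plus strand at chr17:40810999-40811148, Kel on the minus strand at chr6:41704326-41704475, Ermap on the minus strand at chr4:119189996-119190145, Icam4 on the plus strand at chr9:21029282-21029431 and Tmod1 on the plus strand at chr4:46039072-46039221.
Rhd: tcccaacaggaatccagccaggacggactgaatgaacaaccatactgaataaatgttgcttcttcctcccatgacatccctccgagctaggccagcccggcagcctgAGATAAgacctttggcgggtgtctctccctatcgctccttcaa
Rhag: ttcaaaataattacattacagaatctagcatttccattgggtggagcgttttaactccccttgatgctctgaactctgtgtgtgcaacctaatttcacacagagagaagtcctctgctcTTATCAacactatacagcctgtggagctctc
Kel: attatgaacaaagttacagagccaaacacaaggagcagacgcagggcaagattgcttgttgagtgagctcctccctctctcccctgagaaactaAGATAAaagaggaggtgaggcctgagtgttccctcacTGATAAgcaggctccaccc
Ermap: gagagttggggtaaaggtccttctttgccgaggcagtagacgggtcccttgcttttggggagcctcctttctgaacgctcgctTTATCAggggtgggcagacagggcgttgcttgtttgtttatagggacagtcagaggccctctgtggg
Icam4: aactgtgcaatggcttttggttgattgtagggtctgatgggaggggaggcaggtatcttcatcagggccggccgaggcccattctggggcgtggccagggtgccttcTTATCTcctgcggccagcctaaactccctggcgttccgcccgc
Tmod1: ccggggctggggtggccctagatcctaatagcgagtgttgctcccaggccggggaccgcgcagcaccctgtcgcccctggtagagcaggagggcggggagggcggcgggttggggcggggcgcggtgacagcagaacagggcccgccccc
The words end 38 bases before the start in Rhd and in Icam4, 26 in Rhag, 62 in Ermap, and 51 and 14 in Kel, and the Tmod1 window holds none. The CACC-like word CCNCNCCC, on either strand, was found in 19 of the 24 genes (79.2%) and in 51.9% of all genes. The word TTCNNNGAA, which Stat proteins bind, was found in 0 of the 24 genes and in 9.55% of all genes. The loop letters of the iron responsive element, searched on the gene's strand alone, were found in 2 of the 24 genes (Hemgn and Uros) and in 11.9% of all genes. That element works in the RNA, and the window holds only 50 bases after the start. The rest of each transcript was not searched, so this count does not tell which genes carry the element. A match is a string of letters and not a bound site, and no match says only that the letters are not in the window.

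The genes of the membrane skeleton did not move together. Of 4 tested, Ank1 fell in both genotypes and Tmod1 rose in both, and Sptb rose in controls. Ank1, the ankyrin that ties spectrin to band 3, gave 156, 166 and 104 in knockout plus against 228, 673 and 206 in knockout minus samples. In controls it gave 167, 431 and 116 in plus against 423, 812 and 292 in minus samples. The signs overlapped in controls across sets, while within each set the plus array was lower. The log2 change of Ank1 was -1.04 ± 0.27 in knockouts (adjusted p 0.0228) and -1.06 ± 0.27 in controls (0.0172), and without set B it was -0.64 in knockouts (0.0497). The next brightest probe set of Ank1, below the filter, gave 0.94 in knockouts (adjusted p 0.164 over all probe sets) and -0.05 in controls (0.961).

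Tmod1, tropomodulin, which caps the slow-growing end of actin filaments, gave 467, 1474 and 364 in knockout plus against 153, 1393 and 164 in knockout minus samples. It gave 799, 2283 and 537 in control plus against 211, 1057 and 157 in control minus samples. Set B was bright in all 4 groups, so the signs overlapped across sets. Within sets the knockout plus array was higher by 1.43 in A, 0.08 in B and 1.01 in C, on the log2 scale. The change was 0.84 ± 0.27 in knockouts (adjusted p 0.0496) and 1.48 ± 0.27 in controls (0.00318).
Sptb, beta spectrin, gave 87.6, 173 and 140 in knockout plus against 55.2, 98.7 and 56.4 in knockout minus samples. In controls Sptb gave 102, 279 and 123 in plus against 57.5, 68.2 and 87.6 in minus samples. Only the control arrays kept apart by sign. The log2 change was 0.69 ± 0.27 in knockouts, not called (adjusted p 0.1), and 0.86 ± 0.27 in controls (0.0419). The minus arrays of Sptb averaged 6.66 on the log2 scale, below the filter at 6.76, so Sptb passed through its plus samples alone. Another probe set of Sptb has the same mean log2 signal, 7.05, and there only the knockout arrays kept apart. It gave 113 to 128 in knockout plus against 50.6 to 88.8 in knockout minus samples, and 104 to 157 in control plus against 62.9 to 121 in control minus samples. Add2, beta adducin, changed by 0.01 ± 0.28 in knockouts and 0.32 ± 0.28 in controls, neither called, and Epb42, protein 4.2, lay below the filter at 2.02 to 34.1 over the 12 arrays.

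In the heme pathway, 1 of 7 tested genes fell in knockouts (14.3%, beside 9.72% of all tested genes) and 2 in controls (28.6%, beside 11.6%), and none rose. These shares rest on 1 and 2 genes, and that in knockouts is near the share of all genes. The median log2 change was -0.47 in knockouts and -0.51 in controls. Alad, which carries out the second step by joining aminolevulinate into porphobilinogen, gave 546, 535 and 281 in knockout plus against 958, 3787 and 1008 in knockout minus samples. In controls Alad gave 746, 632 and 319 in plus against 1524, 4949 and 1222 in minus samples. Plus arrays lay below minus arrays in both genotypes. Its log2 change was -1.75 ± 0.37 in knockouts (adjusted p 0.00853) and -1.91 ± 0.37 in controls (0.00438). A dimmer probe set of Alad, also above the filter, differed less. It averaged 6.76 in knockout plus and 7.7 in knockout minus samples on the log2 scale, without overlap. In controls it averaged 7.25 in plus and 7.69 in minus samples, with overlap, and the plus array of set C was the higher one (97.7 against 83.5).

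Urod, which trims uroporphyrinogen to coproporphyrinogen, gave 3893, 7547 and 3258 in knockout plus against 4596, 11498 and 4875 in knockout minus samples. It gave 4729, 5602 and 2661 in control plus against 5695, 11706 and 4409 in control minus samples. The signs overlapped across sets in both genotypes, with the plus array lower in all 3 sets of each. The change was -0.47 ± 0.19 in knockouts, not called (adjusted p 0.105), and -0.68 ± 0.19 in controls (0.0254).
The other tested heme genes were not called in either genotype. Ppox, protoporphyrinogen oxidase, had log2 changes of -0.83 ± 0.31 in knockouts and -0.64 ± 0.31 in controls. Cpox, coproporphyrinogen oxidase, had -0.74 ± 0.31 and -0.51 ± 0.31. The change of Uros, which closes the ring, was -0.15 ± 0.19 in knockouts and 0.19 ± 0.19 in controls. For Fech, ferrochelatase, which sets in the iron, it was -0.17 ± 0.20 in knockouts (95% interval -0.61 to 0.28) and -0.05 ± 0.20 in controls (-0.49 to 0.39). The dimmest of the Fech probe sets gave -1.94 in controls (adjusted p 0.0206 over all probe sets), unlike its brightest. Slc25a38, the mitochondrial glycine carrier, had -0.14 ± 0.32 and -0.15 ± 0.32. Alas2 changed by -0.04 ± 0.26 in knockouts and 0.53 ± 0.26 in controls when tested without the filter, neither called.

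The iron genes went both ways. Fth1, the heavy chain of ferritin, gave 14365, 31102 and 13978 in knockout plus against 10504, 16307 and 8762 in knockout minus samples. It gave 14637, 33133 and 11742 in control plus against 10547, 13295 and 8289 in control minus samples. The plus array was the higher one in all 6 pairs, though set B made the signs overlap. Fth1 rose by 0.68 ± 0.17 in knockouts (adjusted p 0.0168) and by 0.76 ± 0.17 in controls (0.00806), on the log2 scale, or 1.61-fold and 1.7-fold.

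Tfrc, the transferrin receptor, gave 4624, 3235 and 4619 in knockout plus against 3286, 1348 and 3125 in knockout minus samples. In controls Tfrc gave 4206, 2266 and 5206 in plus against 3755, 1685 and 3432 in minus samples. The plus array was higher in all 6 pairs, and set B was the dimmest in every group. On the log2 scale Tfrc changed by 0.76 ± 0.18 in knockouts (adjusted p 0.0149) and 0.39 ± 0.18 in controls, not called (0.143). The difference between genotypes was 0.37 ± 0.26 (unadjusted p 0.177, adjusted 0.954). None of the 5 other probe sets of Tfrc was called in either genotype, with 0.02 to 0.67 in knockouts.
Slc25a37, mitoferrin, which takes iron into mitochondria, gave 791, 382 and 438 in knockout plus against 1594, 751 and 1041 in knockout minus samples. It gave 476, 474 and 540 in control plus against 1601, 350 and 852 in control minus samples. The signs overlapped across sets, and in set B of the controls the plus array was the higher one. Slc25a37 changed by -1.03 ± 0.31 in knockouts (adjusted p 0.0403) and by -0.64 ± 0.31 in controls, not called (0.167). Slc11a2, the endosomal metal transporter, changed by -0.46 ± 0.30 in knockouts and -0.82 ± 0.30 in controls, neither called. The next brightest probe set of Slc11a2, also above the filter, differed more. It averaged 7.88 in knockout plus and 8.9 in knockout minus samples on the log2 scale. In controls it averaged 8.04 in plus and 9.09 in minus samples, and the signs did not overlap in either genotype.

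**Figure D3:**
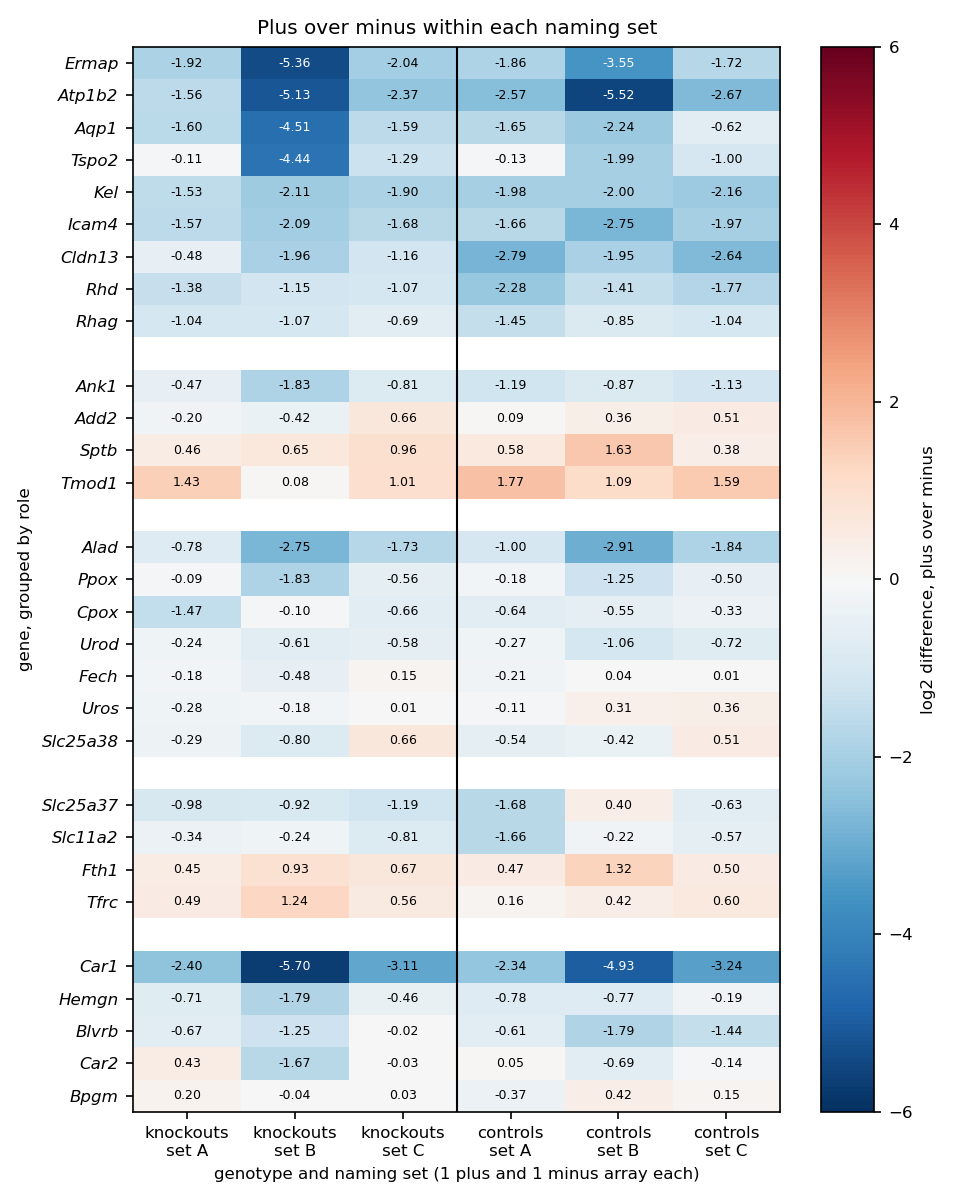
Log2 difference between the plus and the minus array of the same genotype and naming set, for the 29 tested genes by role (blue is lower and red is higher in the plus array). The membrane and surface genes are blue in all 6 columns, Fth1 and Tfrc are red in all 6, and the set B columns hold the deepest values, such as -5.70 for Car1 and -5.36 for Ermap in knockouts.

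Of the soluble enzymes and nuclear proteins, 2 of 5 tested genes fell in each genotype and none rose. That is 40.0%, beside 9.72% of all tested genes in knockouts and 11.6% in controls, and it rests on 2 genes. Car1, a carbonic anhydrase of red cells, gave 574, 203 and 265 in knockout plus against 3175, 12184 and 2529 in knockout minus samples. In controls Car1 gave 1630, 661 and 302 in plus against 8378, 21113 and 3132 in minus samples. Every plus array lay below every minus array. Its log2 change of -3.74 ± 0.58 in knockouts (adjusted p 0.00156) was the largest of the 29 genes there, 13.4-fold lower, and it was -3.50 ± 0.58 in controls (0.00189), 11.4-fold lower. Within sets it ran from -5.70 in set B to -2.40 in set A in knockouts.

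Blvrb, a flavin and biliverdin reductase, gave 304, 392 and 298 in knockout plus against 503, 977 and 301 in knockout minus samples, with overlap. In controls it gave 471, 235 and 165 in plus against 733, 889 and 500 in minus samples, with no overlap. Its log2 change was -0.65 ± 0.32 in knockouts, not called (adjusted p 0.18), and -1.28 ± 0.32 in controls (0.0155).
Hemgn, the nuclear protein hemogen, gave 2080, 798 and 2696 in knockout plus against 2833 to 3733 in knockout minus samples, and did not overlap between the signs. It gave 2802 to 3266 in control plus against 3736 to 5620 in control minus samples. The log2 change was -0.99 ± 0.30 in knockouts (adjusted p 0.0398), or -0.59 without set B and then not called (0.0731), and -0.58 ± 0.30 in controls, not called (0.186). Car2, another carbonic anhydrase, changed by -0.42 ± 0.36 in knockouts and -0.26 ± 0.36 in controls, and Bpgm, which makes bisphosphoglycerate, by 0.06 ± 0.21 in each, and neither was called. Trim10, below the filter, gave 39.0 to 132 over the 12 arrays.

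Knockouts against controls gave no call among the 29 genes under either sign. In plus samples, 0 were called by limma, where 0.0189% of all tested genes were called lower and 0.0% higher. An unadjusted p under 0.05 was found for 6 of the 29, and for 9.81% of all tested genes. The 6 were Hemgn (-0.90 ± 0.30), Aqp1 (-1.43 ± 0.51), Ermap (-1.78 ± 0.64), Add2 (-0.78 ± 0.28), Uros (-0.47 ± 0.19) and Tmod1 (-0.63 ± 0.27), each with an adjusted p of 0.507. Ermap gave 533, 60.0 and 329 in knockout plus and 1346, 929 and 541 in control plus samples, and Hemgn 798 to 2696 and 2802 to 3266, without overlap. The log2 change was negative for 23 of the 29 genes, with a median of -0.27 beside -0.04 for all tested genes. Without the knockout plus array of set B, whose source label opens with another number than the rest of its set, 1 gene had an unadjusted p under 0.05 and the median was -0.08. Without the knockout plus array of set C the median was -0.48 with 8 such genes, and without the block there were 2.

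In minus samples 0 genes were called by limma, where again 0.0189% of all tested genes were called lower and 0.0% higher. An unadjusted p under 0.05 was found for 4 of the 29, and for 2.36% of all tested genes. The 4 were surface proteins: Kel (-0.65 ± 0.24), Rhd (-0.63 ± 0.28), Rhag (-0.58 ± 0.26) and Cldn13 (-0.76 ± 0.33), each with an adjusted p of 1.0. Kel gave 513, 485 and 443 in knockout minus and 991, 855 and 534 in control minus samples, without overlap. The change was negative for 26 of the 29 genes and for all 9 surface proteins, with medians of -0.37 and -0.63 beside -0.01 for all tested genes. Within sets the median of the 29 was -0.52 in A, -0.38 in B and -0.12 in C. Leaving out 1 of the 6 minus arrays at a time gave medians of -0.54 to -0.20, with 23 to 26 of the 29 negative and 0 to 5 at an unadjusted p under 0.05. The median was -0.51 without the array whose labels conflict. It was -0.21 without the knockout minus array of set A and -0.20 without the control minus array of set B, each with 0 such genes, and without the block there were also 0. The 95% intervals reached up to 1.46 on either side of the change, so differences of that size between genotypes were not detectable for the most variable genes.

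**Figure D4:**
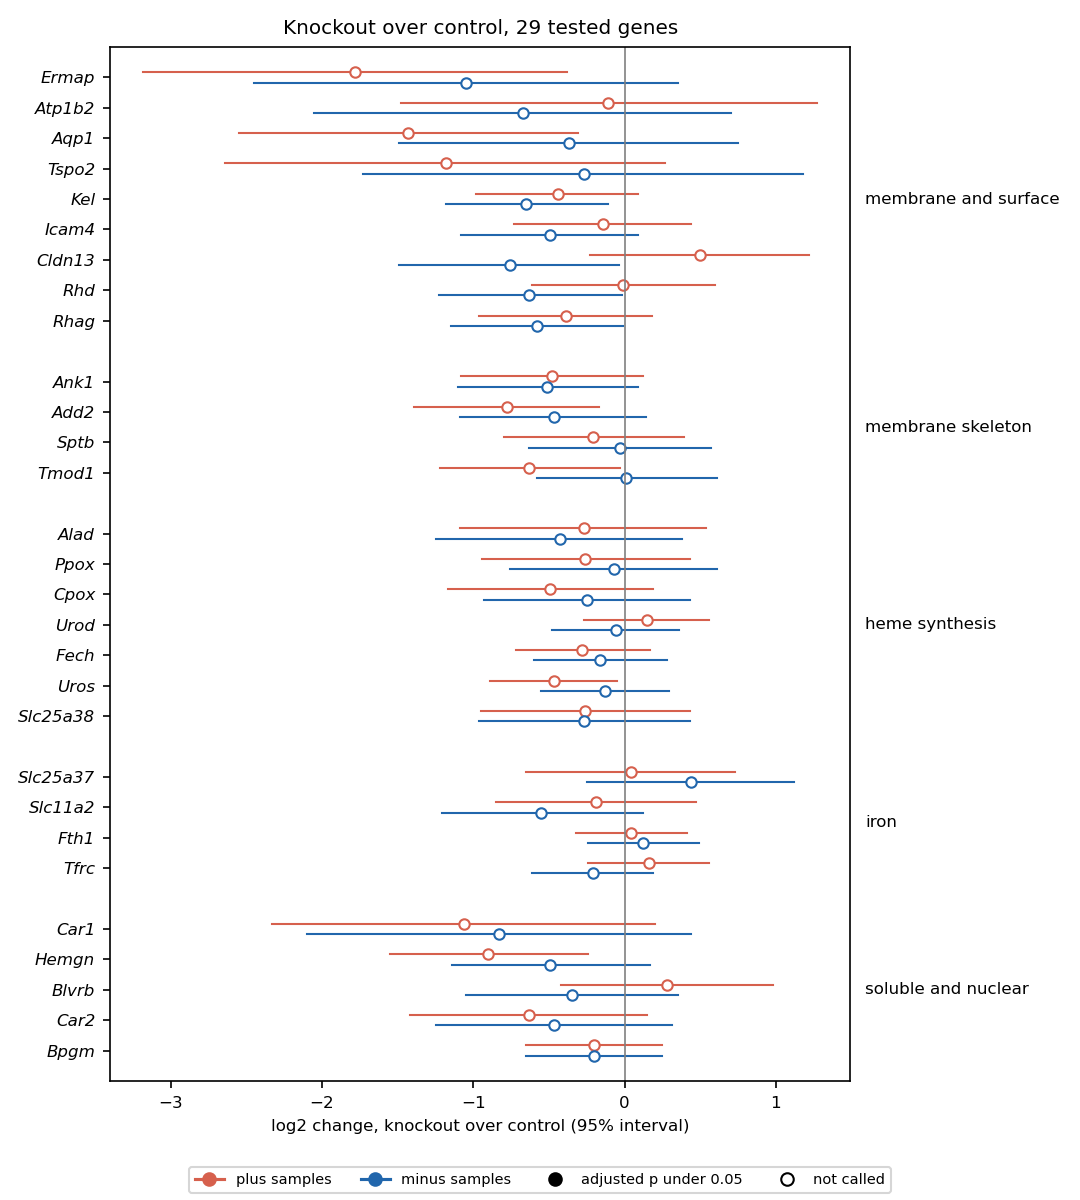
Log2 change of knockout over control for the 29 tested genes, by role, with 95% intervals (3 arrays a group; light red is plus and blue is minus samples). All points are open, since none was called, and 23 of 29 in plus and 26 of 29 in minus samples lie left of 0.

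The test of whether the change with the sign differed between knockouts and controls called 0 of the 29 genes and 0.0% of all tested genes, with 1 gene (Cldn13) at an unadjusted p under 0.05, beside 2.11% of all tested genes. The log2 differences ran from -1.06 for Aqp1 to 1.26 for Cldn13, whose plus arrays lay below the filter. The 95% intervals reached from 0.52 to 2.05 on either side, depending on the gene.

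Other genes of the same pathways, listed from textbook knowledge, went both ways. Their shares stand beside 9.72% of all tested genes that fell and 9.03% that rose in knockouts, and 11.6% and 10.6% in controls, and most rest on 1 to 3 genes. Of 13 other membrane genes tested, 3 fell (23.1%) and 2 rose (15.4%) in plus samples of knockouts, and 2 fell (15.4%) and 3 rose (23.1%) in controls. Slc14a1, the urea channel of the Kidd blood group, fell by 1.76 in knockouts and by 1.33 in controls, and Stom, stomatin, by 0.99 and 1.39. Add3, gamma adducin, rose by 1.12 and 1.04. Of 8 other heme genes, 3 fell (37.5%) and 1 rose (12.5%) in each genotype. The iron-sulfur cluster genes Glrx5 (-0.75 and -0.58) and Nfs1 (-0.80 and -0.80) and the porphyrin transport gene Tmem14c (-0.89 and -0.79) fell in knockouts and in controls, given in that order. The porphyrin transporter Abcb6 rose (0.91 and 1.11).

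Of 8 other iron genes, 2 fell in each genotype (25.0%), and 1 rose in knockouts (12.5%) and 2 in controls (25.0%). Tfr2, the second transferrin receptor, changed by -1.74 ± 0.27 in knockouts and -1.62 ± 0.27 in controls. Steap3, the endosomal ferrireductase, changed by -1.61 ± 0.41 and -1.80 ± 0.41. Ncoa4, which carries ferritin to its breakdown, rose by 0.96 ± 0.15 and 1.0 ± 0.15, and Ireb2, an iron regulatory protein, by 0.82 ± 0.24 in controls. Of 6 genes of heme breakdown and export, none was called by limma in knockouts (3 had an unadjusted p under 0.05, beside 33.9% of all tested genes), while 1 rose (16.7%) and 2 fell (33.3%) in controls. Hmox1, heme oxygenase, gave 56.3 to 488 in knockout plus against 14.9 to 48.2 in knockout minus samples, and 121 to 620 in control plus against 18.3 to 32.2 in control minus samples. Its minus arrays averaged below the filter, so it passed through the plus samples alone and the size of its change was not measured. It was called higher in controls (adjusted p 0.00373) and not called in knockouts (0.0509). Blvra, the main biliverdin reductase, and Abcg2, a porphyrin exporter, fell by 0.82 and 0.83 in controls.

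Among 10 regulators of red cell genes, 2 fell in knockouts (20.0%, beside 9.72% of all tested genes), and 2 fell (20.0%, beside 11.6%) and 1 rose (10.0%, beside 10.6%) in controls. Klf1, the erythroid Krueppel-like factor, gave 234 to 545 in knockout plus against 1258 to 5175 in knockout minus samples. It gave 370 to 1061 in control plus against 1294 to 6622 in control minus samples. The signs did not overlap, and Klf1 changed by -2.43 ± 0.51 in knockouts (adjusted p 0.00842) and -2.02 ± 0.51 in controls (0.0159). Gata1 changed by -1.51 ± 0.38 in knockouts (0.018) and -1.06 ± 0.38 in controls, not called (0.0635). Epor, the erythropoietin receptor, was not called (-0.83 ± 0.31 and -0.84 ± 0.31). In controls Gfi1b, a repressor that works in the erythroid and megakaryocytic lineages, rose by 1.65, and Bcl11a, a repressor of fetal globin, fell by 1.37.

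Markers of several blood lineages were present beside these genes. Of the 9 erythroid markers listed, 5 have a probe set of their own and 2 (Klf1 and Epor) passed the filter. The summed signal of the 5 was 456 to 948 in knockout plus and 1698 to 5810 in knockout minus samples. In controls the sum was 663 to 1547 in plus and 1893 to 7271 in minus samples. The 4 mast cell and basophil markers on the array (of 5 listed) also passed, and summed to 1029 to 6450 in knockout plus, 1484 to 3752 in control plus, 6262 to 8370 in knockout minus and 6322 to 7791 in control minus samples. The 8 neutrophil granule markers summed to 45230 to 74161 in knockout plus, 35558 to 111919 in control plus, 51285 to 147452 in knockout minus and 42646 to 146747 in control minus samples. The 5 megakaryocyte markers on the array (of 6) summed to 10940 to 21168, 15366 to 25213, 16282 to 25426 and 19377 to 30597 in the same order of groups. For 6 monocyte markers, of which 5 passed, the sums were 12995 to 33251 in knockout plus, 7421 to 13323 in control plus, 11909 to 18903 in knockout minus and 6023 to 13519 in control minus samples. For 4 progenitor markers they were 5244 to 17595, 8566 to 15845, 14462 to 23161 and 14011 to 23172, again in that order. Plus and minus samples of a genotype did not overlap in the erythroid sums, nor in the mast cell and basophil sums of controls. The erythroid sums were mostly Klf1, which gave 5175 of the 5810 and 6622 of the 7271. The other erythroid markers did not all follow it. Hba-a1, below the filter, gave 35.2 to 102 in knockout plus and 3.53 to 23.4 in knockout minus samples, and Alas2 overlapped between the signs. Markers of eosinophils, B cells and T cells were all below the filter, with sums of at most 244, 268 and 98.0. The part of these cell types in the results was not tested.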

How the data were processed

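Total RNA of 12 samples was hybridised to 1-colour Affymetrix arrays. The authors deposited linear intensity signals per probe set, made with MAS5 per the submitters' processing notes, and every array has a mean of 500 after trimming 2% at each end. Precision is limited by the number of arrays. The probe table pairs 34958 of 45101 probe sets with 1 gene symbol, 932 with several and leaves 9211 unlisted. Probe sets ending in _s_at or _x_at may also read related transcripts. Values were taken as log2(signal + 32), which understates changes of dim genes, and the level filter kept genes with a mean of at least 6.76, the median over all probe sets. One fit (limma 3.58.1 in R 4.3.3, eBayes with trend) held the 4 groups and the naming set as a block, with 6 residual and 5.78 prior degrees of freedom. The titles pair arrays by naming set, and deviations from the group means correlated at 0.41 to 0.77 in all 18 same-set pairs and at -0.64 to 0.28 in the other 36. All p-values are two-sided and adjusted over all 10583 genes by the Benjamini-Hochberg method, and called means an adjusted p under 0.05. The script was tested on simulated data. Members and lists were chosen with earlier results of these data known. Members are all accounted for, those called in a contrast by their array values, and of each other list up to 4 genes of smallest p are named. Alternatives tried were array centring, quantile normalization, pseudocounts of 1 and 100, other level filters, fits without the block, of 2 groups, with array weights, without a trend or with the beta-actin ratio, other probe sets, and leaving out sets or arrays.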

Additional observations from a re-analysis of the deposited data

How the results depend on the processing

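The main count of called genes, 16 in knockouts and 15 in controls, depended on the block and on single sets. Without the replicate block for the naming set, 4 were called in knockouts and 7 in controls. With the stricter level filter (upper quartile of all probe sets, 16 genes tested), 10 and 7 were called. A fit of only the 2 groups compared gave 6 in knockouts. Without set A 8 were called in knockouts, and without set C 6 in knockouts and 6 in controls. Fitting the beta-actin 3' to 5' ratio left 4 in knockouts (Kel, Icam4, Car1 and Alad). Without the array of conflicting labels 9 were called in knockouts, and 8 with it counted as a control. Array weights raised the count to 21 in each genotype. Leaving out 1 array at a time gave 7 to 16 in knockouts and 9 to 19 in controls. In knockouts the count was 7 without the knockout minus array of set C and 9 without that of set B, and in controls 9 without the control plus array of set C. The other probe sets of Atp1b2 (0.27) and Ank1 (0.94) reversed their direction in knockouts, and the cause was not tested. Kel, Icam4 and Car1 kept their calls in both genotypes under every alternative that tested them, and so did Rhd and Cldn13 in controls. Atp1b2 kept its call in controls under every setting of its main probe set, while its other probe set (-0.41) was not called. Counting only genes above the filter under both signs, a choice made after seeing the data, gave 14 and 12 of 26. Centring each array on its median moved the median of all genes in controls to -0.22, with 2 higher and 14 lower calls there and 1 and 14 in knockouts. The same centring put the median of all genes at 0.15 for knockouts over controls in plus samples and of the 29 genes at -0.08. Knockout against control and the difference between genotypes gave 0 calls in every setting run. With 3 arrays a group, small changes of dim genes were not detectable.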
